A study of Homo sapiens with 6 samples.

Results

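The HSP70 and HSP110 chaperones are a protein family that binds unfolded stretches of other proteins. Clients bind and leave quickly while HSP70 holds ATP, are held tightly once the ATP is hydrolysed, and are released when ADP is exchanged for new ATP. HSP70 proteins do the binding, J-domain proteins bring clients and stimulate ATP hydrolysis, and HSP110 proteins, distant relatives of HSP70, act as nucleotide exchange factors that reset the cycle. Some family genes are transcribed in unstressed cells and others are known mainly as targets of heat shock factor 1, which binds heat shock elements in their promoters when proteins misfold. The 10 genes described here were chosen by family membership and with their response to curcumol in these libraries already known, so their differences between the groups are given as a description. They are HSPA6, HSPA1A and HSPA1B, the stress-inducible HSP70 genes, HSPA1L and HSPA2, known for expression in the testis, HSPA8, the constitutive HSC70, HSPA13, a microsomal HSP70-like protein, and the HSP110 genes HSPH1, HSPA4 and HSPA4L. All 10 were found among the 58735 genes of the count table, and all 10 passed the filter on low counts, HSPA6 and HSPA1L only through the curcumol libraries.

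RNA was sequenced from ACHN, a long-established line of human kidney cancer cells, labelled as wild-type in genotype and as clear cell carcinoma, in 3 control and 3 curcumol-treated libraries. Curcumol is a sesquiterpenoid from the rhizome oil of Curcuma plants. The labels describe the controls as vehicle-treated while the text on the design says that they had no drug, and neither dose nor exposure time is stated in the labels. The stated purpose was to follow how curcumol affects glycolysis and malignant behaviour.

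The libraries held 16962012 to 17827433 counts. Of 8 markers of renal epithelial and carcinoma cells 7 were detected and 6 were abundant enough to be tested. CA9, the usual marker of clear cell carcinoma, had 0 to 3 counts per library, and LRP2, of the proximal tubule, had 0 in every library. The summed level of the 8 renal markers was 4030.5 to 4363 CPM in control and 2767 to 3169.8 CPM in curcumol. The kidney transcription factor PAX8, with the largest fall of those tested, went from 192 ± 4.49 to 60.1 ± 3.38 CPM (SD, n = 3). PAX2 went from 54.0 to 26.0 CPM. KRT8 (1970 and 1326 CPM) and VIM (1247 and 938 CPM), the most counted, were also lower in curcumol. The groups overlapped for KRT18 (650 and 550 CPM) and for EPCAM, which had the higher mean in curcumol (47.1 and 51.6 CPM). Markers of leukocytes (4 genes) and endothelium (3 genes) summed to at most 0.947 and 0.568 CPM, with CD3E at 0 counts in every library and PTPRC at 0 in control, and those of fibroblasts (3 genes, COL3A1 at 0 in control) to 2.32 to 2.91 CPM in control and 6.50 to 12.1 in curcumol. The part of these shifts in the results below was not tested. In bulk RNA, fewer cells of a kind and less RNA per cell cannot be told apart.

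The promoters are shown first because the family's best known control acts there. RefSeq entries of GRCh38.p14 were found for all 10 genes, with 3 start sites for HSPA4L, and the 250 bases before each start were searched. Shown 5′ to 3′ on the gene's own strand are those of HSPA6, HSPA1A, HSPA1B and HSPH1, which have the largest differences, and of the most counted member, HSPA8, and capitals mark matches to the heat shock element, GAANNTTC or TTCNNGAA. Their positions are chr1:161524290-161524539, plus strand for HSPA6, chr6:31815293-31815542, plus strand for HSPA1A, chr6:31827488-31827737, plus strand for HSPA1B, chr11:123062137-123062386, minus strand for HSPA8 and chr13:31162389-31162638, minus strand for HSPH1.
HSPA6: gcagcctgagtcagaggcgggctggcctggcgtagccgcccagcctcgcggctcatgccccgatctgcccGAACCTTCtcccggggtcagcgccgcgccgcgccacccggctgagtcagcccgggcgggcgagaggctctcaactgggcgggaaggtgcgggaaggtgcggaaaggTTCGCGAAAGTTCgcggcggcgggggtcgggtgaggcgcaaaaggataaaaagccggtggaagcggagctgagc
HSPA1A: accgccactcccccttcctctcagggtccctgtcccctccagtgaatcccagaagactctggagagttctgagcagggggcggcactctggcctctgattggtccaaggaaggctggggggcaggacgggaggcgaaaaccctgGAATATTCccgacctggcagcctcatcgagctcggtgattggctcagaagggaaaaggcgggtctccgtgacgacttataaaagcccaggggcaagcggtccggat
HSPA1B: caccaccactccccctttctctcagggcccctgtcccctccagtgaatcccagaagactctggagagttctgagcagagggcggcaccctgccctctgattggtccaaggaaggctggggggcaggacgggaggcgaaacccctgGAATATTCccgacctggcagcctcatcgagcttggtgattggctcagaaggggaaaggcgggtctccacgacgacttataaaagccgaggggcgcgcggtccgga
HSPA8: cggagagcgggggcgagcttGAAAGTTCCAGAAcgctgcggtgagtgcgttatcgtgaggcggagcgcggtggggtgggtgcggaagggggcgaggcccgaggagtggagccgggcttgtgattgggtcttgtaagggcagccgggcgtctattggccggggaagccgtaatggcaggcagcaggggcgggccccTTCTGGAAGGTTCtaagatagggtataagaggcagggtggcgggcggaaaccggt
HSPH1: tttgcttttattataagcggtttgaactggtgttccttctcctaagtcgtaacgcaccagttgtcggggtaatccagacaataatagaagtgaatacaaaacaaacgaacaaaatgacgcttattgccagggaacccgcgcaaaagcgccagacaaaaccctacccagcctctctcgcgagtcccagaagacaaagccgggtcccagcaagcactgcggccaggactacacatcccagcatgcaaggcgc

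Each element of 8 letters holds 2 inverted units and reads the same on both strands. It was present for 6 of the 10 genes and in 6 of their 12 promoter entries, against 11.6% of 35116 promoter entries. The form with 3 units, GAANNTTCNNGAA or TTCNNGAANNTTC, contains the shorter ones and was searched on both strands. It was present for 2 of the 10 genes, HSPA6 and HSPA8, and in 2 of the 12 entries, against 0.441% of all entries. In HSPA6 it began 74 bases before the start, and in HSPA8 at 230 and at 55 bases before it. HSPA1A and HSPA1B each had 1 element of the short form, GAATATTC, which began 106 and 105 bases before the start, and TATAAA at 30 and 29 bases (10.7% of entries held TATAAA on either strand). These promoters were the same at 235 of 249 bases when shifted by 1 base. HSPA1L lies head to head with HSPA1A, so that 241 bases of its window are the HSPA1A window read on the other strand, element included. HSPA4L had the short form before 1 of its 3 starts. HSPH1, HSPA4, HSPA2 and HSPA13 had no match in the window searched, which says only that these letters are not in these 250 bases.

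HSPA6, HSPA1A and HSPA1B were the members with the widest difference, and their curcumol libraries lay far above every control library. HSPA6, a strictly inducible HSP70 (ENSG00000173110, chr1:161524540-161526910, GRCh38 and GENCODE 29, as for all genes below), had 10, 7 and 16 counts in the controls against 2011, 1834 and 2193 with curcumol. Scaled to depth this was 0.575 ± 0.235 CPM (a gene's counts relative to the library's total, which is scaled by the TMM factor) in control and 127 ± 11.7 CPM in curcumol (SD, n = 3), which differ by 7.77 ± 0.15 (SE) on the log2 scale. Ordered by log2 fold change it ranked 23 of the 15160 genes tested, and 1 of the 10431 with a mean of at least 100 counts over the 6 libraries, a limit it reached only through its curcumol counts. With so few control counts, the fold depends on counting error in control. The SE was larger with DESeq2 (0.27) and with limma-voom (0.38). The log2 fold change was 7.52 without control replicate 2 and 8.12 without control replicate 3. HSPA7, an unprocessed pseudogene that shares 27.6% of the 100-base windows of the HSPA6 transcript, had 3, 0 and 1 counts in the controls against 18, 29 and 16 with curcumol.

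HSPA1A (ENSG00000204389, chr6:31815464-31817946) and HSPA1B (ENSG00000204388, chr6:31827735-31830255) encode the main inducible HSP70. HSPA1A had 114, 82 and 96 counts in the controls against 7360, 7307 and 8658 with curcumol. HSPA1B had 247, 252 and 230 counts in the controls against 17400, 15736 and 18894 with curcumol. The groups of both genes were wide apart, with at least 7307 counts of HSPA1A and 15736 of HSPA1B in every curcumol library. The log2 fold changes were 6.59 ± 0.11 and 6.43 ± 0.09 (SE), which ranked 75 and 83 of the 15160 genes tested, and 4 and 5 of the 10431 with a mean of at least 100 counts. HSPA1A, like HSPA6, reached that limit only through its curcumol counts.

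The coding sequences of this pair differ at 4 of 1923 bases, and 69.9% of the 100-base windows of the HSPA1A transcript are also found in HSPA1B. How the counting tool placed such reads is not known, so the sum of both genes was also taken. Any reads dropped for matching both genes would be missing from the sum too. The levels and shares of this pair given here and below would then be too low. The sum was 361, 334 and 326 counts in the controls against 24760, 23043 and 27552 with curcumol, or 17.8 ± 1.40 and 1591 ± 146 CPM (SD, n = 3), and on the log2 scale the difference was 6.48 ± 0.09 (SE). HSPA1A took 28.5% ± 3.60 of the summed counts in control and 31.0% ± 1.07 in curcumol (SD, n = 3), and the groups overlapped in this share. The processed transcript AL671762.1, which shares 920 exonic bases with HSPA1B on the same strand, had at most 10 counts in any library.

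**Figure D1:**
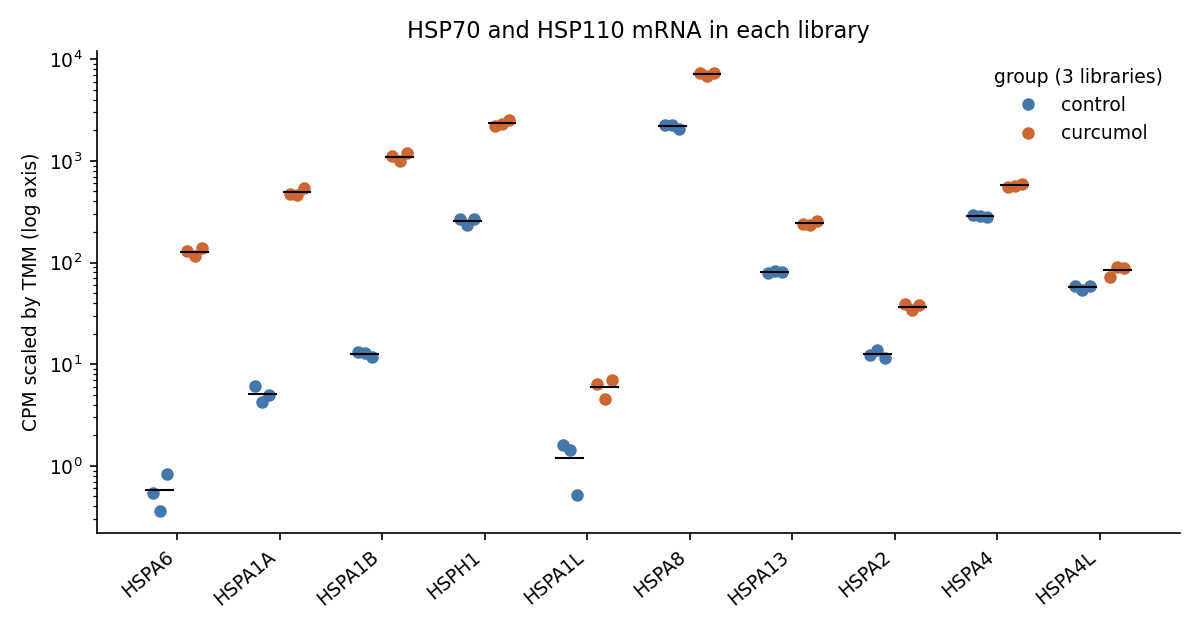
Level of each of the 10 genes in each library, as CPM scaled by TMM on a log axis, with 3 control (blue) and 3 curcumol libraries (orange) per gene and black lines at the group means. On this scale, without a GC offset, every curcumol library lies above every control library for all 10 genes, as for 39.8% of the genes tested. The gap is widest for HSPA6 (0.575 against 127 CPM) and narrowest for HSPA4L (57.3 against 83.5 CPM).

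HSPA8 encodes HSC70, the constitutive chaperone that also uncoats clathrin vesicles and serves chaperone-mediated autophagy. It was the most counted member in both groups, with 41961, 44121 and 39832 counts in the controls against 113015, 109431 and 116826 with curcumol (ENSG00000109971, chr11:123057489-123063230). The lowest curcumol library held more than the highest control library by a wide margin, and the spread within each group was small. Its level went from 2197 ± 122 to 7162 ± 261 CPM (SD, n = 3), and on the log2 scale the difference was 1.71 ± 0.06 (SE). The snoRNA genes SNORD14C and SNORD14D, which share exonic bases with HSPA8, had 0 counts in all libraries.

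The HSP110 genes differed among themselves. HSPH1, the inducible HSP110 also known as HSP105 (ENSG00000120694, chr13:31134974-31162388), had 5024, 4582 and 5187 counts in the controls against 34487, 37103 and 40360 with curcumol. Its level went from 258 ± 18.9 to 2362 ± 172 CPM (SD, n = 3), and on the log2 scale the difference was 3.19 ± 0.07 (SE), and the groups were clearly apart.

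HSPA4, a mostly constitutive HSP110 also called APG-2 (ENSG00000170606, chr5:133051962-133106449), had 5435, 5563 and 5394 counts in the controls against 8694, 9053 and 9423 with curcumol. This was 286 ± 7.06 against 573 ± 19.5 CPM (SD, n = 3), and on the log2 scale the difference was 1.0 ± 0.05 (SE). Every curcumol library of HSPA4 lay above every control library, and the spread within both groups was small.

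HSPA4L, the relative called APG-1 (ENSG00000164070, chr4:127781821-127840733), had 1098, 1040 and 1144 counts in the controls against 1122, 1426 and 1413 with curcumol. These counts overlapped between the groups before scaling, and curcumol replicate 1 was the lowest of its group. After scaling by TMM the libraries stood at 59.1, 53.7 and 59.1 CPM in control and 71.9, 89.5 and 89.2 CPM in curcumol, without overlap, and the log2 fold change was 0.55 ± 0.08 (SE). With library totals it was 0.28 ± 0.09 (SE). With an offset for GC content it was -0.08 ± 0.07 (SE), so that neither its direction nor its call held. The antisense RNA AC093591.2 shares 536 exonic bases with HSPA4L on the other strand and had at most 9 counts in any library.

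HSPA13, a microsomal protein with an HSP70-like ATPase domain (ENSG00000155304, chr21:14371115-14383484), had 1482, 1585 and 1574 counts in the controls against 3741, 3767 and 4017 with curcumol. The groups were far apart with little spread, at 80.9 ± 1.05 and 243 ± 9.11 CPM (SD, n = 3), and the log2 fold change was 1.59 ± 0.06 (SE), or 0.83 ± 0.06 with a GC offset.

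HSPA2, an HSP70 needed in male meiosis (ENSG00000126803, chr14:64535905-64546173), had 229, 268 and 221 counts in the controls against 606, 541 and 600 with curcumol, a log2 fold change of 1.56 ± 0.10 (SE). HSPA1L, a testis-enriched HSP70 (ENSG00000204390, chr6:31809619-31815065), was the least counted member in curcumol, with 30, 28 and 10 counts in the controls against 99, 72 and 112 with curcumol. Its log2 fold change of 2.32 ± 0.29 carried the largest SE of the 10 in edgeR, as it did in DESeq2. In limma-voom the SE of HSPA6 was larger (0.38 against 0.35). Without control replicate 3, the lowest library, the log2 fold change of HSPA1L was 1.95. Both genes were present at low level in this kidney line, and the curcumol libraries of both lay above their control libraries.

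All 10 genes (9 with a GC offset, without HSPA4L) were higher in curcumol by the edgeR quasi-likelihood test at an adjusted p under 0.05, as were 39.4% of the 15160 genes tested, while 40.3% were lower. Scaled by TMM, all 10 also had every curcumol library above every control library, as had 39.8% of the genes tested. The median log2 fold change was 2.01 for the 10 genes and -0.02 for all genes. Since the members were chosen with this contrast known, nothing is read from these counts.

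**Figure D2:**
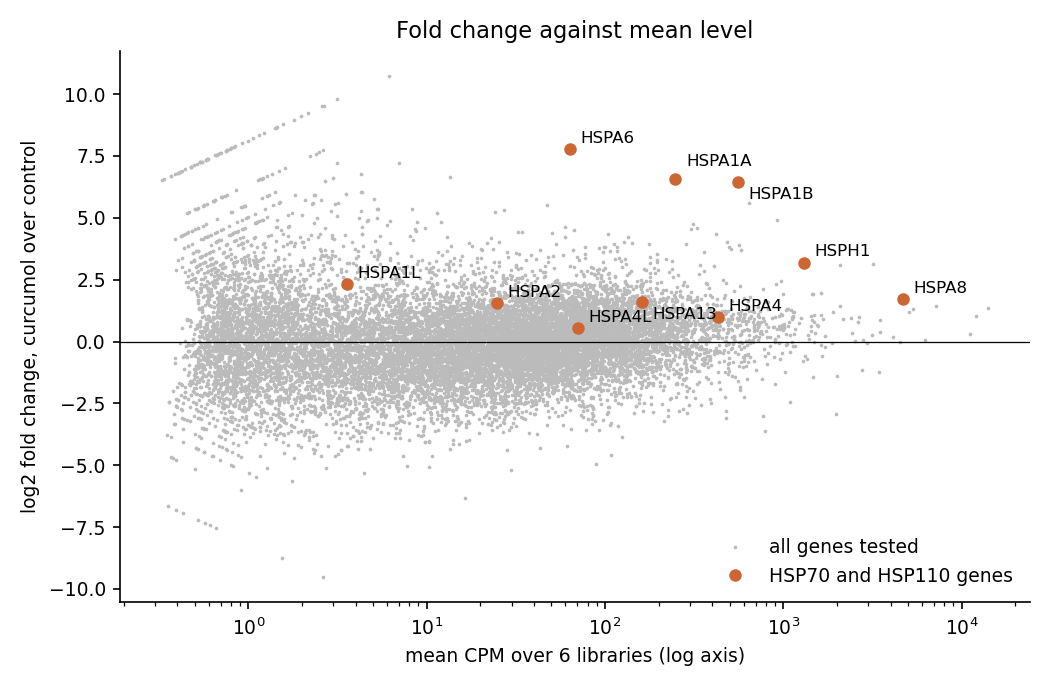
Log2 fold change (curcumol over control) against mean CPM over the 6 libraries on a log axis, for all 15160 genes tested (grey) and the 10 HSP70 and HSP110 genes (orange). By log2 fold change HSPA6, HSPA1A and HSPA1B rank 23, 75 and 83 of the 15160 genes, and HSPA4L, at 0.55, ranks 4958.

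The rule did not use gene structure, in which the members differ. In 1 transcript per gene of GENCODE 29, HSPA6, HSPA1A and HSPA1B have 1 exon, and HSPA1L and HSPA2 have 2. HSPA13 has 5, HSPA8 has 9, HSPH1 has 18, and HSPA4 and HSPA4L have 19. The 3 genes of 1 exon, of which HSPA1A and HSPA1B are nearly identical, had log2 fold changes of 6.43 to 7.77. The other 7 had 0.55 to 3.19. The same 3 genes had the highest GC content of their transcripts, 58.4% to 59.7%, against 34.9% to 49.7% in the other 7 and a median of 48.8% over genes tested.

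Over 15154 genes the log2 fold change was lower at higher GC content (Spearman rho -0.34, a description across genes, which share the libraries). An offset for GC content was therefore fitted per library as an alternative. With it the log2 fold changes of HSPA6, HSPA1A and HSPA1B were 8.26, 7.14 and 6.94, above those without it. Those of HSPH1 (2.70), HSPA8 (1.57), HSPA2 (1.25) and HSPA4 (0.62) were lower than without it. HSPA1L, near the middle in GC content, stood at 2.33. HSPA6 was first and HSPA4L last with and without the offset. Without it HSPA13 (1.59 ± 0.06, SE) and HSPA2 (1.56 ± 0.1) were not separated. With it HSPA13 (0.83 ± 0.06) stood below HSPA2 (1.25 ± 0.1).

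**Figure D3:**
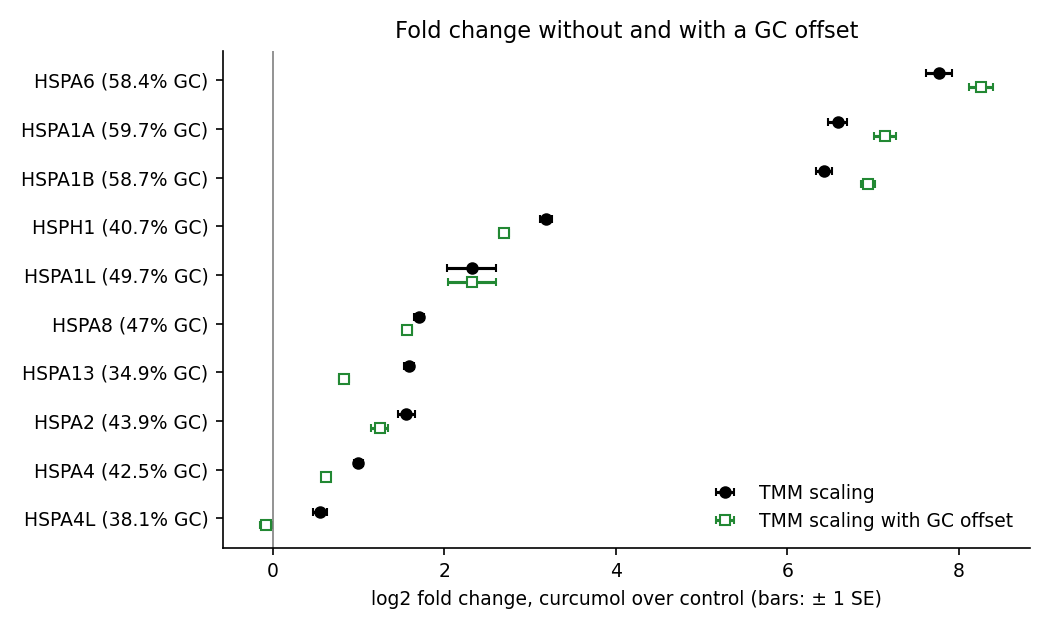
Log2 fold change (curcumol over control) of the 10 genes with TMM scaling alone (black) and with an added GC offset per library (green squares), with bars of 1 SE and the GC content of each transcript beside its name. The offset moves the GC-rich HSPA6, HSPA1A and HSPA1B up and the GC-poor HSPA13 and HSPA4L down, HSPA4L to -0.08.

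The make-up of the summed counts of the 10 genes also differed between the groups. The 10 genes summed to 2911 ± 121 CPM in control and 12186 ± 553 CPM in curcumol (SD, n = 3), or 0.319% ± 0.0118 and 1.11% ± 0.0558 of all counts. HSPA8 took 75.4% ± 1.26 of the 10 genes' counts in control and 58.8% ± 1.13 in curcumol (SD, n = 3). HSPA1A and HSPA1B together went from 0.612% ± 0.0345 to 13% ± 0.623, and HSPH1 from 8.88% ± 0.856 to 19.4% ± 0.943.

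HSPA4 went from 9.83% ± 0.194 to 4.71% ± 0.133 of the 10 genes' counts although its own level was higher in curcumol. Of the summed rise of the 10 genes in CPM, HSPA8 made up 53.5%, HSPH1 22.7%, HSPA1B 11.7% and HSPA1A 5.25%. HSPA6, with the largest fold change, made up 1.37% of the rise. These shares are of counts and are not corrected for transcript length. They leave out the 6 other family members described below. Of those, HSPA5 went from 1123 to 3021 CPM and HSPA9 from 621 to 1328, while HYOU1 went from 268 to 131.

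**Figure D4:**
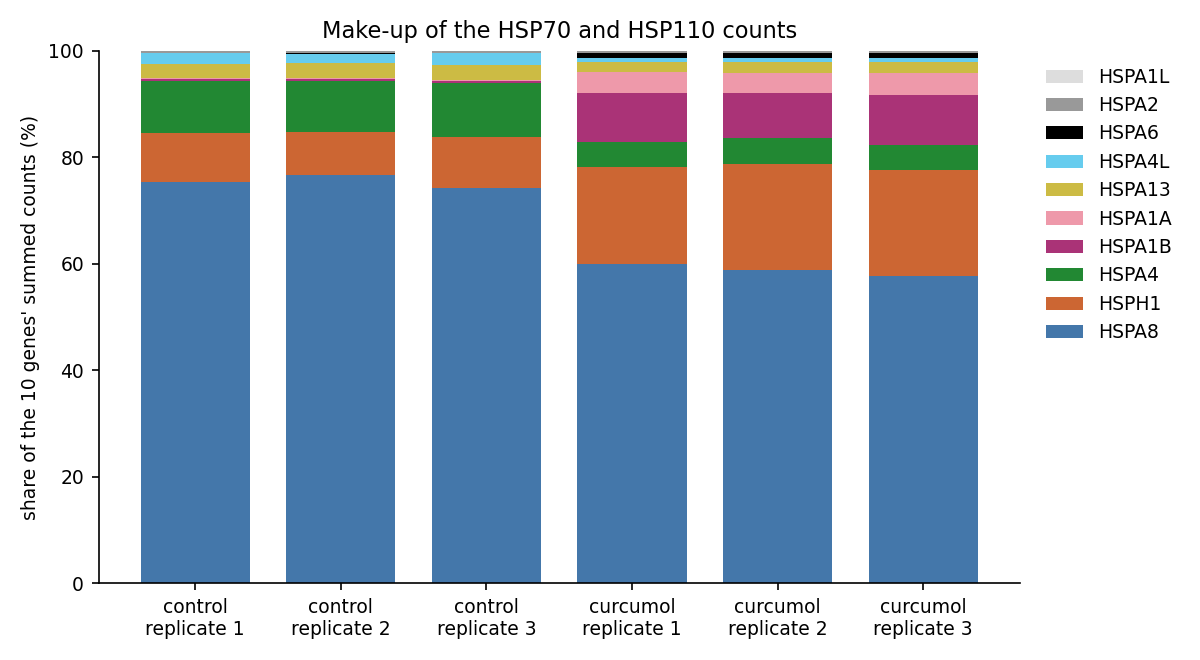
Share of the 10 genes' summed counts taken by each gene, as stacked bars in percent, in each of the 3 control and 3 curcumol libraries. HSPA8 falls from 75.4% to 58.8% on average, and HSPH1, HSPA1B and HSPA1A take more in each curcumol library than in any control library.

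Per kilobase of joined exons, HSPA8 was first in both groups, at 453 ± 25.2 CPM per kb in control and 1477 ± 53.9 in curcumol (SD, n = 3). In control it was followed by HSPA4 (55.5 CPM per kb), HSPH1 (30.8), HSPA13 (19.3), HSPA1B (5.05), HSPA4L (4.93), HSPA2 (2.17), HSPA1A (2.06), HSPA1L (0.468) and HSPA6 (0.243). The libraries of HSPA1B and HSPA4L overlapped, as did those of HSPA2 and HSPA1A and those of HSPA1L and HSPA6, so these neighbours were not separated. In curcumol the order was HSPA8, HSPA1B (436 CPM per kb), HSPH1 (282), HSPA1A (198), HSPA4 (111), HSPA13 (58.0), HSPA6 (53.8), HSPA4L (7.19), HSPA2 (6.39) and HSPA1L (2.35).

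There the libraries of HSPA13 and HSPA6 overlapped, as did those of HSPA4L and HSPA2. HSPA6 moved from the last place to the seventh, and the inducible HSPA1B and HSPA1A passed the constitutive HSPA4. Joined exons can exceed the length of the mRNA. Per kilobase of coding sequence, HSPH1 (916 CPM per kb) stood above HSPA1B (571) in curcumol, and HSPA4L (22.7) above HSPA1B (6.62) in control.

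**Figure D5:**
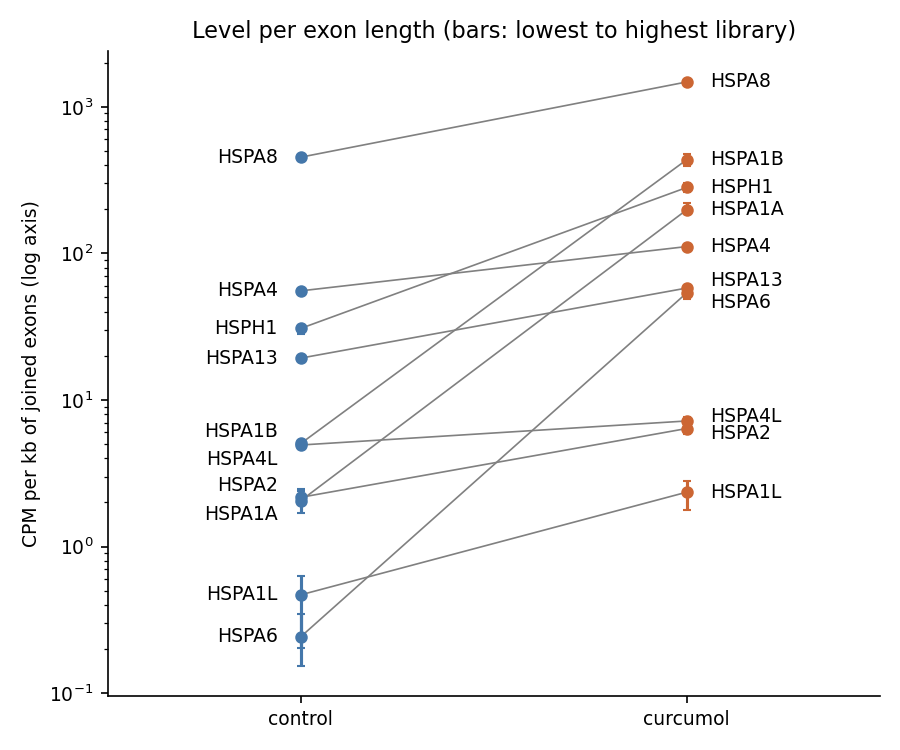
Level of each gene per kilobase of joined exons, in CPM per kb on a log axis, in control (left) and curcumol (right), with points at the mean of 3 libraries and bars from the lowest to the highest library. The lines of HSPA6, HSPA1A and HSPA1B are the steepest, those of HSPA6 and HSPA1A cross those of HSPA4L and HSPA2, and HSPA8 is on top in both groups.

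Curcumol replicate 3 was the highest of its group for 8 of the 10 genes and curcumol replicate 2 the lowest for 7. The coefficient of variation in curcumol ran from 3.40% for HSPA4 to 22.0% for HSPA1L, and in control from 1.30% for HSPA13 to 49.6% for HSPA1L. HSPA6 and HSPA1L, with few control counts, were the most variable in control.

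Genes with a like pattern were sought by the Euclidean distance over the 6 libraries of log2 CPM less the control mean, among 10431 genes. For HSPA8 the nearest were DAB2 (distance 0.0943), HRH1 (0.0966) and KCTD5 (0.105). For HSPA4L they were EDEM3 (0.0693), BBS7 (0.0772) and CEP120 (0.112). For the sum of HSPA1A and HSPA1B no gene was as close, and the nearest were the processed pseudogene AC084880.1 (1.43), HMOX1 (1.55) and TBR1 (1.55).

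A list of 33 genes that work with HSP70 was also described. It was chosen with earlier results of these data known, so its counts say nothing of HSP70 partners in general. Of the 33 genes 32 were tested, 24 were higher, 4 were lower and 4 did not pass (edgeR, adjusted p under 0.05), with a median log2 fold change of 1.25, against the 39.4% higher, 40.3% lower and median of -0.02 of all genes. Among 9 J-domain co-chaperones of the cytosol 8 rose and 0 fell. DNAJB1, the main partner of inducible HSP70, rose by 3.89 ± 0.07 on the log2 scale (SE, edgeR adjusted p = 3.3e-20) and DNAJB4 by 3.34 ± 0.07 (2.52 with a GC offset), while DNAJB5 stood at -0.18 ± 0.23 (edgeR adjusted p = 0.466).

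Of 6 nucleotide exchange factors 5 rose and 0 fell, against 39.4% higher and 40.3% lower of all genes. These calls depended on the scaling for BAG2 and HSPBP1. BAG2, named after its values were seen, stood at 0.34 ± 0.08 (SE, edgeR adjusted p = 0.000339), at 0.07 with library totals (edgeR adjusted p = 0.382) and at -0.33 with a GC offset (edgeR adjusted p = 4.24e-05). BAG3, which links HSP70 to selective autophagy, rose by 3.83 ± 0.07 (SE, edgeR adjusted p = 3.95e-21) and BAG1 by 2.29 ± 0.07. HSPBP1, a cytosolic exchange factor, stood at -0.02 ± 0.09 (edgeR adjusted p = 0.872), at -0.28 with library totals (edgeR adjusted p = 0.00447) and at 0.71 with a GC offset (edgeR adjusted p = 7.81e-10). Of 5 genes for the hand-over of clients 4 rose. ST13, which encodes HIP, rose by 1.28 ± 0.05 and HSP90AA1, the inducible cytosolic HSP90, by 1.31 ± 0.06. STUB1, which encodes the ubiquitin ligase CHIP that marks HSP70 clients for degradation, fell by 1.29 on the log2 scale (edgeR adjusted p = 9.91e-11), or by 0.55 with a GC offset.

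Of 3 small heat shock proteins 2 rose, against 39.4% of all genes. HSPB8, the partner of BAG3, went from 22.4 ± 1.14 to 598 ± 17.9 CPM (SD, n = 3), and on the log2 scale the difference was 4.74 ± 0.07 (SE). HSPB1 rose by 1.22 ± 0.06, or 1.94 with a GC offset. CRYAB was barely counted, with 10, 27 and 28 counts in the controls against 3, 15 and 12 with curcumol, and its difference of -0.83 ± 0.49 did not pass (edgeR adjusted p = 0.129).

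The family also has members outside the 10, some of them of other compartments, as is the microsomal HSPA13 among the 10. Of 6, 5 were tested, and 3 rose and 1 fell, against 39.4% higher and 40.3% lower of all genes. HSPA12B had at most 12 counts in any library and was not tested. HSPA5, the BiP of the endoplasmic reticulum, rose by 1.43 ± 0.06 (SE, edgeR adjusted p = 1.04e-15) and HSPA9, the mortalin of mitochondria, by 1.10 ± 0.05. HYOU1, the HSP110 relative of the endoplasmic reticulum, was the member that fell, by 1.03 on the log2 scale (named after its value was seen). HSPA12A, a distant relative, stood at -0.07 ± 0.07 (edgeR adjusted p = 0.369), at -0.33 under scaling by library totals (edgeR adjusted p = 0.000221) and at -0.16 with a GC offset (edgeR adjusted p = 0.0191).

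Of 4 genes for heat shock factors and their binding protein 2 rose and 2 fell, against 39.4% higher and 40.3% lower of all genes. HSF1, the main heat shock factor, had 1282, 1411 and 1259 counts in the controls against 714, 727 and 600 with curcumol, and fell by 0.68 on the log2 scale (edgeR adjusted p = 1.97e-07). With a GC offset it stood at 0.03 (edgeR adjusted p = 0.719), so neither its direction nor its call held there. HSF2 rose by 1.98 ± 0.09 and HSBP1, which binds heat shock factor 1, by 0.54 ± 0.06. The other gene that fell was HSF4 (-1.92), named after its value was seen. These are mRNA levels, and neither the activity nor the binding of these factors was measured.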

How the data were processed

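Poly(A) RNA of 3 control and 3 curcumol-treated ACHN libraries was sequenced in pairs on an Illumina instrument, per the labels' protocols. The authors deposited raw counts, integers for each gene identifier in each library, without normalization. The build is GRCh38, per the submitters' processing notes, and aligner, counting tool and use of strand are not stated there. All 58735 identifiers matched GENCODE 29, which gave positions, exons and GC content.

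Samples were grouped by their titles. filterByExpr kept 15160 genes. After TMM scaling, edgeR 4.0.16 (R 4.3.3) fitted its quasi-likelihood model to both groups, two-sided, with Benjamini-Hochberg adjustment over all genes tested and a threshold of 0.05. SE was derived from the log2 fold change and its F statistic (their size over root F). For HSPA6 it was below the SE of DESeq2 and of limma-voom. No library repeats another: within groups, chi-square over its degrees of freedom was 3.68 to 8.82. The labels describe independent biological replicates. With 3 libraries per group their number limits precision, and counts near 0 carry counting error.

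The members, the list of partner genes and the naming rule (all 10 members, and of each partner group the 2 genes with the smallest and the 1 with the largest p, HSF1, and the 3 nearest patterns) were chosen with earlier results of these data known. HSPA14 names 2 rows of the table, and the one that still carries the name in the newer symbol table was used. Alternatives were DESeq2 1.42.0, limma-voom (limma 3.58.1), RLE size factors, library totals, no filter, a stricter filter (1 CPM, 50 counts), blocking on replicate number, a GC offset (per library, a 5-df spline on the GC content of 1 transcript per gene), both together, and each library left out. The code was tested on simulated counts.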

Additional observations from a re-analysis of the deposited data

How the results depend on the processing

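The 10 members were higher in 10 of 10 cases under every alternative but the GC offset, with and without the replicate block, where 9 were higher because HSPA4L stood at -0.08. Partner genes numbered 23 to 24 higher and 4 to 6 lower, but not always the same genes. With the GC offset, also with the block, HSF1 moved to 0.03 and left the lower calls, HSPBP1 moved to 0.71 and became higher, BAG2 turned from 0.34 to -0.33 and became lower, and HSPA12A became lower (-0.16). With library totals HSPBP1 (-0.28) and HSPA12A (-0.33) became lower and BAG2 (0.07) lost its call. The cause was not tested. Over all genes 5967 were higher and 6109 lower, 4818 and 7372 with library totals, where the all-gene median was -0.28 instead of -0.02 (without a filter, 0.20). The sum of HSPA1A and HSPA1B ranged from 6.21 (library totals) to 7.03 (GC offset), and from 6.42 to 6.55 when 1 library was left out. Deviations of same-numbered libraries had correlations of 0.02, -0.01 and 0.08, against -0.08 to 0.05 for libraries of different number. No pairing by number was seen, but with 3 libraries per group a weak one could be missed. With the replicate block 5955 genes were higher and 6131 lower, 10 members were higher, and 24 partners were higher and 4 lower. CRYAB passed without control replicate 1 (-1.17, edgeR adjusted p = 0.041). Depth limits HSPA6 and HSPA1L in control, where counts were 7 to 30.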
